A study of Mus musculus with 3 samples.

Results

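CD genes carry the cluster of differentiation numbers that were given to cell surface molecules as antibodies against them were sorted, first on leukocytes. The set described here holds every gene whose symbol in the platform annotation is Cd, a number, and at most a letter and a digit, provided its probe set lists a single symbol. It counts 85 of 19057 measured genes, read by 87 probe sets. All 85 were sorted into 9 roles. Cd5l, a secreted scavenger receptor protein, fits the rule without being a membrane protein.

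The cells were R1, an established line of mouse embryonic stem (ES) cells, from strain 129. The series holds 1 group, 3 biological repeats of the line, with no treatment, transgene or second genotype named, and the labels do not say how the cultures were kept or whether feeder cells were used. RNA was read on the Affymetrix Mouse Gene 1.0 ST array, whose probes lie along the exons of each transcript. The question the data can answer is which of these genes gave signal in ES cells and how evenly they did so. Values are log2 probe set intensity per array, in the order of repeats 1, 2 and 3. Intensities depend on the probes, so a gene is set against background and not against another single gene; medians over many genes are given as a description. The arrays read RNA, not protein at the cell surface, and in bulk RNA fewer cells of a type and less RNA per cell cannot be told apart.

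CD numbers unite molecules of unlike structure. Tetraspanins such as Cd9 and Cd81 cross the membrane 4 times and hold integrins and other partners in shared membrane patches. Sialomucins, complement regulators and immunoglobulin family ligands of T cells make up other groups, and many further members are receptors of lymphocytes or macrophages. In ES cells Cd9 and Cd24a have long been used as surface markers, while most of the leukocyte receptors are known from blood cells.

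Background was set on each array by 1186 olfactory and vomeronasal receptor genes, which sensory neurons use. Their 95th percentile, the cutoff, lay at 4.72, 4.6 and 4.61 log2 in repeats 1, 2 and 3. A stricter cutoff, the 95th percentile of 142 taste receptor, defensin, keratin-associated and late cornified envelope genes, lay at 6.28, 6.31 and 6.32. A gene under a cutoff was not shown to be silent. The label was checked against markers: all 9 measured pluripotency markers, among them Pou5f1, Sox2, Nanog, Sall4 and Zfp42, exceeded the cutoff on all 3 arrays. Of 11 leukocyte markers without a CD symbol, Laptm5, Coro1a and Rac2 did so, and Lcp1 and the pan-leukocyte gene Ptprc did not, Ptprc at 3.68, 3.74 and 3.69. Of 12 fibroblast markers 10 did so (83.3%), among them Col1a1, Col1a2, Col3a1 and Thy1. Of 7 endothelial markers 4 did so (57.1%), including Kdr, Tek and Tie1, while Cdh5, Emcn and Erg did not. Of genes outside these receptor families 71.4% did so, so such counts alone do not show a cell type. The stricter cutoff was exceeded on all arrays by all 9 pluripotency, 2 leukocyte, 8 fibroblast and 0 endothelial markers, and by 41.2% of genes outside the receptor families.

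Most CD genes stayed below the cutoff. On all 3 arrays 30 of the 85 exceeded it (35.3%), against 71.4% of 17871 genes outside the receptor families. A further 4, Cd8a, Cd55, Cd74 and Cd247, exceeded it on 1 or 2 arrays, and 51 on none. The median member lay at 4.23 log2, against 5.88 for genes outside the receptor families. The difference of each gene from the cutoff was also tested with limma over all 19057 genes. After Benjamini-Hochberg adjustment 28 members lay above the cutoff, where 70.4% of genes outside the receptor families did, and 50 lay below it, where 23.6% did. The other 7 were not separated from it. Adjusted p reached 0.00775 among the 28, for Cd300c2, and 0.0178 among the 50, for Cd5. Against the stricter cutoff 9 members lay above in the limma test, where 40.4% of genes outside the receptor families did: Cd9, Cd24a, Cd68, Cd81, Cd151, Cd164, Cd164l2, Cd276 and Cd320.

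**Figure D1:**
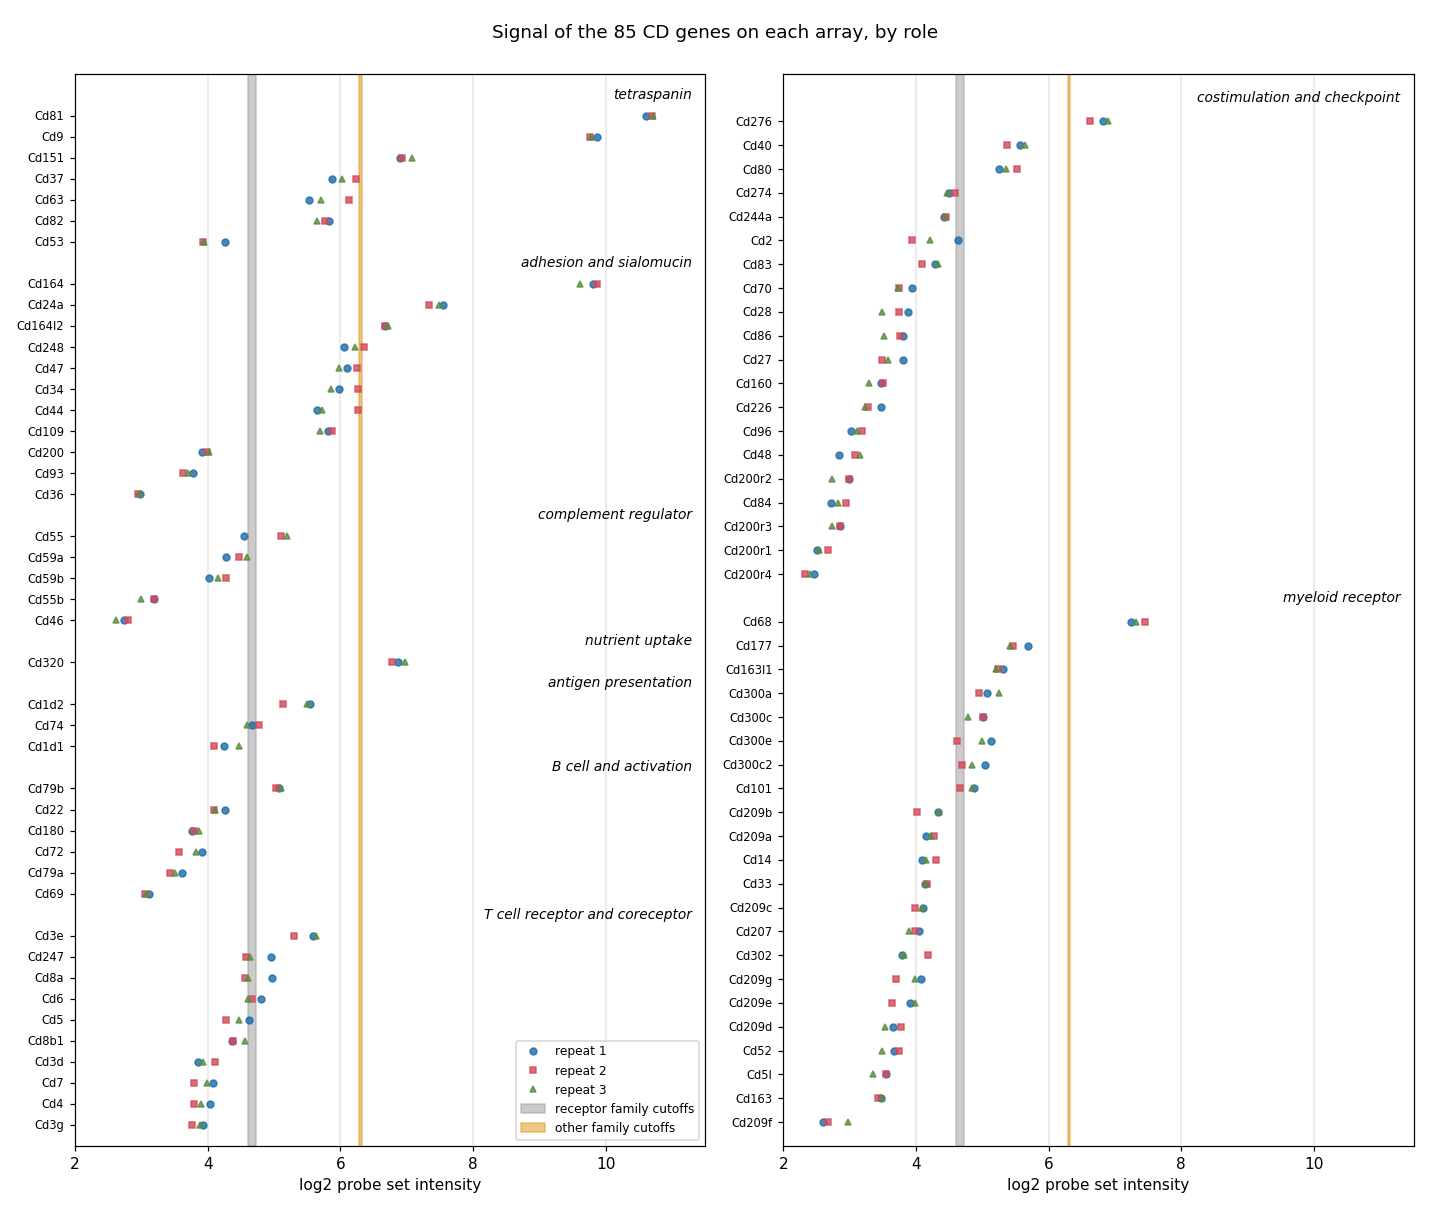
Log2 probe set intensity of the 85 CD genes on each array (points), by role, with the range over arrays of the receptor family cutoff (grey) and of the stricter cutoff from other silent families (orange). The tetraspanins Cd81 and Cd9 and the sialomucin Cd164 lie right of both cutoffs, and all but 1 of the T cell genes lie near the grey band or left of it.

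The promoters of 4 tetraspanins are shown as examples of a role with members on both sides of the cutoff. In it 6 of 7 genes gave signal (85.7%), against 71.4% of genes outside the receptor families. The windows of the members differ in the CG dinucleotides that mark CpG islands. Each window is RefSeq's, from assembly GRCm38.p6, running from 250 bases before the gene start to 50 after it on the gene's strand, with CG in capitals. Cd81 is on the plus strand at chr7:143052500-143052799, Cd9 on the minus strand at chr6:125494711-125495010, Cd37 on the minus strand at chr7:45238790-45239089 and Cd53 on the minus strand at chr3:106790100-106790399.
Cd81: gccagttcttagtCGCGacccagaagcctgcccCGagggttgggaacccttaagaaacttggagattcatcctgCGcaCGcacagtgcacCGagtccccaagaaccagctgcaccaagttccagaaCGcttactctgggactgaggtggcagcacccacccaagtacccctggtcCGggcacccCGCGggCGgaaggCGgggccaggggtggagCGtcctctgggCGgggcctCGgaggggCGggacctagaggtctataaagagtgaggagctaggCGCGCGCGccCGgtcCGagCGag
Cd9: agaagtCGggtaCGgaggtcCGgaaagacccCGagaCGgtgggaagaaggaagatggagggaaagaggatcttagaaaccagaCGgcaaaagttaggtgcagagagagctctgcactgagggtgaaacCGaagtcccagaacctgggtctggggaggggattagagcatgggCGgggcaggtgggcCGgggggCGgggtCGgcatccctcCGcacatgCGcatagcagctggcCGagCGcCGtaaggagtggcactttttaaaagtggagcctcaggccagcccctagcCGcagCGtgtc
Cd37: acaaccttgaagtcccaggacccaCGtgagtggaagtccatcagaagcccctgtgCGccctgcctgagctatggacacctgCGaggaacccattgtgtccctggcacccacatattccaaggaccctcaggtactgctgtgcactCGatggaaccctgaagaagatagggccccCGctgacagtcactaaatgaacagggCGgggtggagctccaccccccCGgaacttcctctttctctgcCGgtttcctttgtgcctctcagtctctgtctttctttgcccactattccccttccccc
Cd53: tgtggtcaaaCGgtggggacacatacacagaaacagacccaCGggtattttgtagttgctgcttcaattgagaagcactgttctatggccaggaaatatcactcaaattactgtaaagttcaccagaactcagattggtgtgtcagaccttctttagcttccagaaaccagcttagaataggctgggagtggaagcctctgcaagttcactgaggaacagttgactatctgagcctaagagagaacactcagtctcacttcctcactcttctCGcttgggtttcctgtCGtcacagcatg

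These windows hold 23 CG in Cd81, 18 in Cd9, 8 in Cd37 and 4 in Cd53. The median of 32851 windows in the table was 7, and 21.5% of them hold at least as many as Cd81, 29.7% as many as Cd9 and 68.6% as many as Cd53. The letters GGGCGG, searched on both strands, occur in the windows of Cd81, Cd9 and Cd37 and not in that of Cd53, and in 35.7% of all windows. They are also in 1 of the 2 windows of Cd151 and 2 of the 4 of Cd82, and not in that of Cd63, so presence did not follow signal in all 7 genes. The remaining tetraspanins had 6 CG in Cd63, 20 and 4 in the 2 windows of Cd151, and 4 to 16 in the 4 windows of Cd82. A count of letters is a description of the window, and nothing was drawn from it about expression. Windows were found for 62 of the 85 members (72.9%), below the 80% set for a comparison over a whole set, so a comparison of promoters over all members is void.

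Of 7 tetraspanins 6 gave signal on every array (85.7%), against 71.4% of genes outside the receptor families. Cd81, which pairs with integrins and other membrane proteins, read 10.60, 10.70 and 10.71 log2. It lay 6.03 log2 units above the cutoff (SE 0.075, n = 3). Cd9, which the egg needs to fuse with sperm, read 9.87, 9.76 and 9.78, or 5.16 above the cutoff (SE 0.079, n = 3). Repeats of both genes lay within 0.11 log2 units of one another, and no array came near either cutoff. Cd151, a partner of laminin-binding integrins, read 6.90, 6.93 and 7.08 and cleared both cutoffs too.

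The other tetraspanins lay between the cutoffs or below them. Cd37, known from B cells, read 5.87, 6.24 and 6.03. Cd63, a tetraspanin of late endosomes and exosomes, read 5.52, 6.13 and 5.71. Cd82, first described as a metastasis suppressor, read 5.83, 5.76 and 5.64. These 3 exceeded the receptor family cutoff on every array and the stricter one on none. Cd53, a tetraspanin of leukocytes, stayed below both at 4.26, 3.94 and 3.94. Of 22 measured tetraspanins without a CD symbol 15 gave signal on all arrays (68.2%), among them Tspan2, Tspan3, Tspan4 and Tspan5, a share near the 71.4% of genes outside the receptor families. Tspan1 had that list's largest SD and exceeded the cutoff on 2 arrays. All 11 tetraspanin partners on the list gave signal, with Ifitm3 the most variable of them, and they include Itga3, Igsf8 at 6.0, 5.88 and 5.78, Ptgfrn at 7.60, 7.59 and 7.61, and Itga6 at 8.89, 8.96 and 8.98.

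Of 11 adhesion and sialomucin genes 8 gave signal (72.7%), a share near the 71.4% of genes outside the receptor families. Cd164, a sialomucin also called endolyn, read 9.81, 9.86 and 9.62, or 5.12 above the cutoff (SE 0.080, n = 3). Cd24a, the heat stable antigen, a short glycoprotein with a lipid anchor, read 7.55, 7.33 and 7.49. Cd164l2, named for its likeness to Cd164, read 6.68, 6.67 and 6.72. The repeats of Cd164l2 spanned 0.052 log2 units, and all 3 genes cleared both cutoffs on every array.

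Cd47, the ligand by which cells hold off phagocytes that carry Sirpa, read 6.10, 6.25 and 5.97 as the mean of 2 probe sets that disagreed. The probe set whose first listed transcript is a RefSeq mRNA read 7.04, 7.33 and 7.0, above both cutoffs. The probe set whose first listed transcript is a cDNA clone read 5.15, 5.17 and 4.95. With the higher probe set alone Cd47 lay 2.48 above the cutoff, where the mean of both gave 1.46 (SE 0.089, n = 3). Sirpa itself read 5.83, 5.75 and 5.59.

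Cd44, the hyaluronan receptor, read 5.65, 6.27 and 5.73, with repeat 2 the highest. Cd34, a sialomucin of blood progenitors and vessels, read 5.97, 6.27 and 5.86, and repeat 2 was again the highest. Cd248, endosialin, known from fibroblasts and pericytes, read 6.05, 6.35 and 6.22 and passed the stricter cutoff in repeat 2 alone. Cd109, a lipid-anchored coreceptor that restrains TGF-beta signalling, read 5.82, 5.88 and 5.69. Cd44, Cd34 and Cd109 lay above the receptor family cutoff on all arrays and below the stricter one. Cd36, the fatty acid and thrombospondin receptor, read 2.98, 2.95 and 2.96, and the endothelial lectin Cd93 3.78, 3.63 and 3.70. Cd200, a ligand that restrains myeloid cells, read 3.92, 3.99 and 4.02, so these 3 lay below the cutoff on every array.

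None of the 5 complement regulators gave signal on all arrays, where 71.4% of genes outside the receptor families did. In the limma test 4 lay below the cutoff, where 23.6% of those genes did. Cd55, decay accelerating factor, which takes apart the convertases, read 4.55, 5.10 and 5.20. Repeat 1 lay below the cutoff and the other repeats above it, a difference of 0.31 (SE 0.15, n = 3, adjusted p = 0.095 in limma). Without repeat 1 it lay above the cutoff at an adjusted p of 0.000255, without repeat 2 at 0.0275, and without the robust prior at 0.00906. Cd59a and Cd59b, inhibitors of the membrane attack complex, read 4.28, 4.47 and 4.59, and 4.03, 4.27 and 4.16. Without repeat 1 Cd59a was no longer separated from the cutoff (adjusted p = 0.383). Cd46, a cofactor of factor I that in mice is known chiefly from testis, read 2.74, 2.81 and 2.62, and Cd55b 3.18, 3.18 and 3.0. Cd55 and Cd55b, and Cd59a and Cd59b, are pairs of related genes, and whether their probes share signal was not tested.

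Of 21 measured genes of the complement cascade and its regulators without a CD symbol, 6 gave signal on all arrays (28.6%), against 71.4% of genes outside the receptor families. The 6 include Cr1l (Crry), a rodent membrane regulator of the convertases, at 5.62, 6.0 and 5.63, and Serping1, the C1 inhibitor, at 6.62, 6.59 and 6.40. Clu had the list's largest SD. C1qa read 4.91, 4.51 and 4.88, above the cutoff on 2 arrays, and C1qb, C1qc and C1ra were below it on all 3.

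Cd320, the receptor that takes up vitamin B12 bound to transcobalamin, read 6.86, 6.78 and 6.98, or 2.23 above the cutoff (SE 0.092, n = 3). It cleared both cutoffs on every array. Transcobalamin itself, Tcn2, read 7.60, 7.64 and 7.46.

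Of 3 genes of antigen presentation, Cd1d2 lay above the cutoff in the limma test and Cd1d1 below it. Cd1d2 read 5.54, 5.13 and 5.5, and Cd1d1 4.25, 4.10 and 4.47; both encode lipid-presenting relatives of MHC class I, and whether their probes share signal was not tested. Repeat 2 was the lowest of the 3 in both genes. Cd74, the invariant chain of MHC class II, read 4.67, 4.77 and 4.6 and was not separated from the cutoff (adjusted p = 0.657).

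Of 20 genes of costimulation and checkpoint control 3 gave signal (15%), against 71.4% of genes outside the receptor families. Cd276 (B7-H3), a B7 family ligand found on many tissues and tumours, read 6.81, 6.62 and 6.89, or 2.13 above the cutoff (SE 0.092, n = 3), and cleared both cutoffs. Cd40, the receptor for the T cell ligand Cd40lg, read 5.57, 5.37 and 5.64. Cd80, a ligand of Cd28 and Ctla4, read 5.25, 5.52 and 5.36 over 2 probe sets. The one whose first listed transcript is a RefSeq mRNA read 5.69, 6.02 and 5.92 and the other 4.81, 5.03 and 4.79. With the higher probe set alone Cd80 lay 1.23 above the cutoff, where the mean gave 0.73. Cd40 and Cd80 lay below the stricter cutoff on all arrays.

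Cd274 (PD-L1), the ligand of the inhibitory receptor Pdcd1, read 4.5, 4.6 and 4.47, above the cutoff on none, and the limma test did not separate it from the cutoff (-0.12, SE 0.077, adjusted p = 0.123). The remaining 16 had means of 2.40 to 4.44 log2. These 16 of 20 lay below the cutoff in the test (80%), where 23.6% of genes outside the receptor families did. They include Cd2, a lymphocyte adhesion receptor, at 4.63, 3.94 and 4.22, Cd83, known from dendritic cells, at 4.29, 4.09 and 4.33, and Cd244a at 4.42, 4.46 and 4.44. Without repeat 1 Cd244a was no longer separated from the cutoff (adjusted p = 0.0927). Cd27 and Cd28, costimulatory receptors of T cells, read 3.81, 3.5 and 3.57, and 3.89, 3.74 and 3.48. Of 7 B7 relatives without a CD symbol Icosl, Vsir and Btnl2 gave signal, with Icosl at 7.55, 7.63 and 7.18, and Pdcd1lg2 and Vtcn1 were among those that did not.

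Of 10 genes of the T cell receptor and its coreceptors, Cd3e and Cd6 exceeded the cutoff on all arrays (20%), against 71.4% of genes outside the receptor families. Cd3e alone lay above the cutoff in the limma test, at 5.58, 5.29 and 5.64. It was below the stricter cutoff on all arrays. Its neighbours in the same receptor complex, Cd3d and Cd3g, read 3.86, 4.12 and 3.93, and 3.92, 3.77 and 3.89, below the cutoff on every array. The zeta chain Cd247 read 4.95, 4.58 and 4.63, Cd8a 4.97, 4.56 and 4.6, and Cd6 4.80, 4.66 and 4.61, and none of these 3 was separated from the cutoff (adjusted p = 0.323, 0.417 and 0.535). Cd5 at 4.62, 4.28 and 4.47 and Cd8b1 at 4.37, 4.38 and 4.56 lay just below it. Cd5 lost that call without repeat 2 (adjusted p = 0.202) and Cd8b1 without repeat 1 (adjusted p = 0.171). Cd4, the coreceptor of helper T cells, read 4.04, 3.80 and 3.90, and Cd7 4.07, 3.80 and 3.99.

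Of 6 B cell and activation genes 1 gave signal (16.7%), against 71.4% of genes outside the receptor families. Cd79b, a signalling chain of the B cell receptor, gave signal at 5.07, 5.03 and 5.10, between the cutoffs. Its partner chain Cd79a did not, at 3.61, 3.44 and 3.5. Cd22, Cd69, Cd72 and Cd180 had means of 3.09 to 4.16 log2 and lay below the cutoff on all arrays.

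Of 22 myeloid receptors 8 gave signal on all arrays (36.4%), against 71.4% of genes outside the receptor families. Cd68, macrosialin, a lysosomal membrane protein used as a macrophage marker, read 7.23, 7.45 and 7.32, or 2.69 above the cutoff (SE 0.091, n = 3), and cleared both cutoffs on every array. Lyz2, another macrophage marker, read 3.53, 3.78 and 3.75, below the cutoff. It was on the list of 11 leukocyte markers without a CD symbol, of which 3 gave signal on all arrays (27.3%). Those were Laptm5 at 8.89, 8.80 and 9.25, Coro1a at 6.46, 6.38 and 6.42, and Rac2. Cd177, known from neutrophils, read 5.69, 5.46 and 5.41 and the scavenger receptor Cd163l1 5.32, 5.24 and 5.20. Cd300a read 5.07, 4.95 and 5.25, Cd300c 5.02, 5.02 and 4.79, Cd300c2 5.04, 4.69 and 4.84, and Cd300e 5.13, 4.62 and 4.99. Without repeat 1 neither Cd300c2 nor Cd300e was separated from the cutoff (adjusted p = 0.107 and 0.100). Cd101 read 4.88, 4.67 and 4.84 and was not separated from the cutoff (adjusted p = 0.058), but without repeat 2 it was (0.0368). Of the 8 myeloid receptors with signal, all but Cd68 stayed below the stricter cutoff on every array.

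The other 14 myeloid genes lay below the cutoff in the test, with means of 2.75 to 4.23 log2. The lipopolysaccharide coreceptor Cd14 read 4.09, 4.30 and 4.15, and the haemoglobin scavenger receptor Cd163 3.47, 3.43 and 3.49. All 7 measured lectins of the Cd209 family were among them, with Cd209a at 4.16, 4.28 and 4.22 and Cd209b at 4.32, 4.02 and 4.34.

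**Figure D2:**
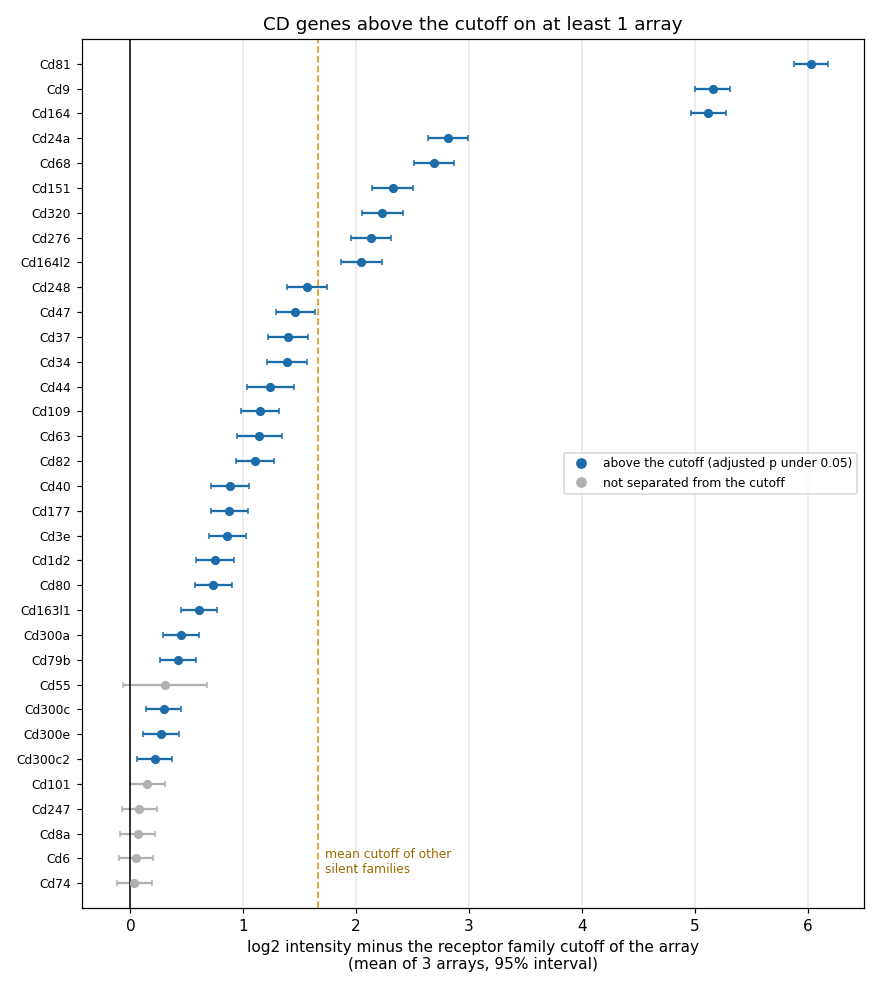
Log2 intensity minus the receptor family cutoff for the 34 CD genes above it on at least 1 array (mean of 3 arrays, bars 95% intervals from limma), with the mean position of the stricter cutoff dashed. The 9 genes from Cd81 down to Cd164l2 have intervals right of the dashed line, and the 6 grey genes have intervals that reach 0. Distances also depend on each gene's probes.

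In the plot of differences from the cutoff, 9 genes lie wholly beyond the stricter cutoff and most others between the cutoffs. Of the 85 members, 18 came within 0.3 log2 units of the receptor family cutoff on at least 1 array. The same count was not made for all genes, so it does not set the members apart.

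Some CD genes sit side by side in the genome. In the gene order of assembly GRCm38.p6, 34 members fall into 12 groups of neighbours at most 3 protein-coding genes apart. Of these 34, 7 gave signal on all arrays, against 23 of the 51 other members and 71.4% of genes outside the receptor families. The Cd300a, Cd300c and Cd300c2 group had 3 of 3 above the cutoff, the Cd209 group 0 of 7 and the Cd200r group 0 of 4. Cd200r1, Cd200r2, Cd200r3 and Cd200r4, related genes of the Cd200 receptor family, had means of 2.57, 2.90, 2.81 and 2.40 log2. Whether related members of these groups share signal through similar probes was not tested.

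Surface antigens that have a CD number but another symbol were set beside the members. The share of genes outside the receptor families above the cutoff on every array was 71.4%. Of 37 measured genes of the broadly expressed list, all exceeded the cutoff on every array, including Itgb1 (CD29) at 9.52, 9.67 and 9.39, Itga6 (CD49f), Itga5 (CD49e) and Itgav (CD51). Nt5e (CD73) had this list's largest SD, at 6.40, 7.14 and 6.15. Of 34 on the leukocyte list 8 exceeded the cutoff on every array (23.5%), among them Itgal (CD11a) at 5.37, 5.35 and 5.34 and Itgb7, which had that list's largest SD. Ptprc (CD45), Itgam (CD11b) and Itgax (CD11c) did not. Both lists were written by hand with earlier results of these data known, and no test was made between them.

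Spread between repeats was then measured. Over the 30 members above the cutoff on all arrays the median SD was 0.13 log2 units, against 0.10 over all such genes outside the receptor families. Without repeat 2 the members' median was 0.083, and over the members above the stricter cutoff it was 0.097. The same medians were not computed for all genes, so these values cannot be set against the 0.10. No member spanned more than 0.69 log2 units. The limma variance test asked which genes varied more than others of their level. It called 0 of the 34 members above the cutoff on at least 1 array after Benjamini-Hochberg adjustment (lowest adjusted p = 0.632), where 0.162% of 13591 genes were called. At an unadjusted p under 0.05 there were 3 of the 34 members (8.82%), Cd44, Cd55 and Cd63, and 782 of the 13591 genes (5.75%). In simulated data the test called 53% of genes with 1 array shifted by 1 log2 unit, and no member spanned that much, so a 0 here does not show that the members did not vary.

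**Figure D3:**
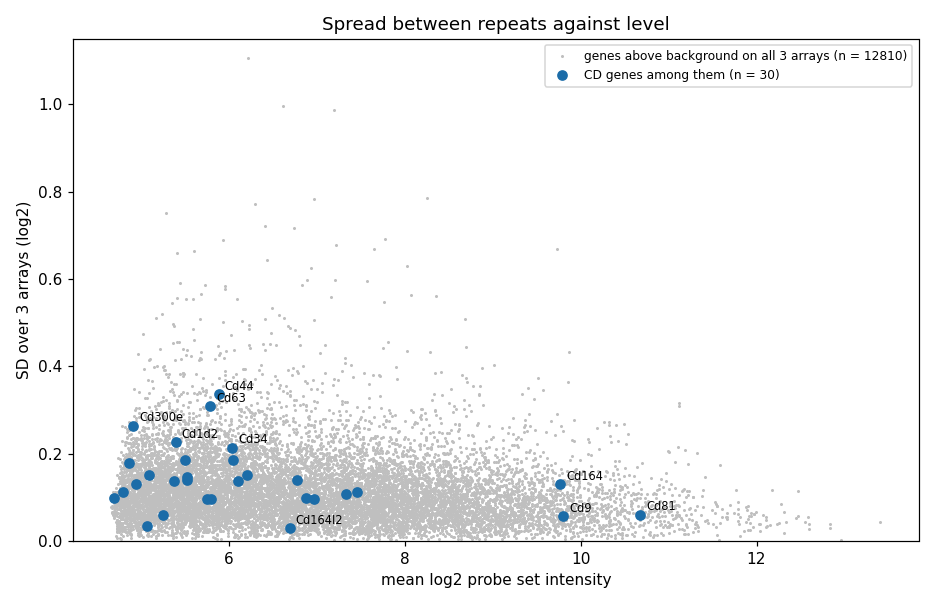
SD over 3 arrays against mean log2 intensity for 12810 genes above the cutoff on all arrays (grey) and the 30 CD genes among them (blue). Cd44 and Cd63 have the largest SDs of the CD genes, at 0.34 and 0.31, and Cd164l2 the smallest, at 0.029.

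Cd44 and Cd63 were the 2 members above the cutoff on all arrays with the largest SDs, and repeat 2 was the higher in both. Repeat 2 minus the mean of repeats 1 and 3 was 0.58 for Cd44, 0.51 for Cd63, 0.35 for Cd34, 0.29 for Cd37 and 0.22 for Cd248. The same difference was -0.44 for Cd300e, -0.39 for Cd1d2 and -0.32 for Cd3e. Over the 30 members repeat 2 was farthest from the median and higher in 7 (23.3%), where it was in 20.5% of genes outside the receptor families. It was farthest and lower in 8 (26.7%), where it was in 17.9% of those genes. The members' median shift in repeat 2 was -0.04, against 0.01 for those genes.

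Other lists were written with earlier results of these data known, so their shifts only describe these arrays. They were set beside the shift in repeat 2. It was farthest and higher in 9 of 10 fibroblast markers above the cutoff, with a median shift of 0.37 and the largest SD in Acta2, at 7.57, 9.11 and 8.07. Summed intensity of the 12 measured fibroblast markers was 5312, 6619 and 5475 in repeats 1, 2 and 3; Lum was below the cutoff on all arrays and S100a4 on 1. Interferon-induced genes had a median shift of 1.08, with 6 of 8 farthest and higher in repeat 2. Irgm1 read 5.42, 7.48 and 5.74, the largest SD of that list and of all genes above the cutoff on all arrays. The list also holds Ifi27. Usp18, Rtp4, Ifit1, Ifit3 and Psmb8 were not above the cutoff on all arrays. The list of ligands and receptors of CD genes had a median shift of 0.04, with 4 of 11 farthest and higher in repeat 2, and these next 2 were among its largest shifts. Has2, the synthase of the Cd44 ligand hyaluronan, read 6.23, 7.11 and 6.15, and Thbs1, the thrombospondin bound by Cd36 and Cd47, 9.40, 10.50 and 9.30. Another hyaluronan synthase, Has3, was below the cutoff on all arrays. The part of these genes in the higher Cd44 and Cd63 of repeat 2 was not tested. Without repeat 2 Cd44 lay 1.02 above the cutoff, where all arrays gave 1.24 (SE 0.10, n = 3).

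**Figure D4:**
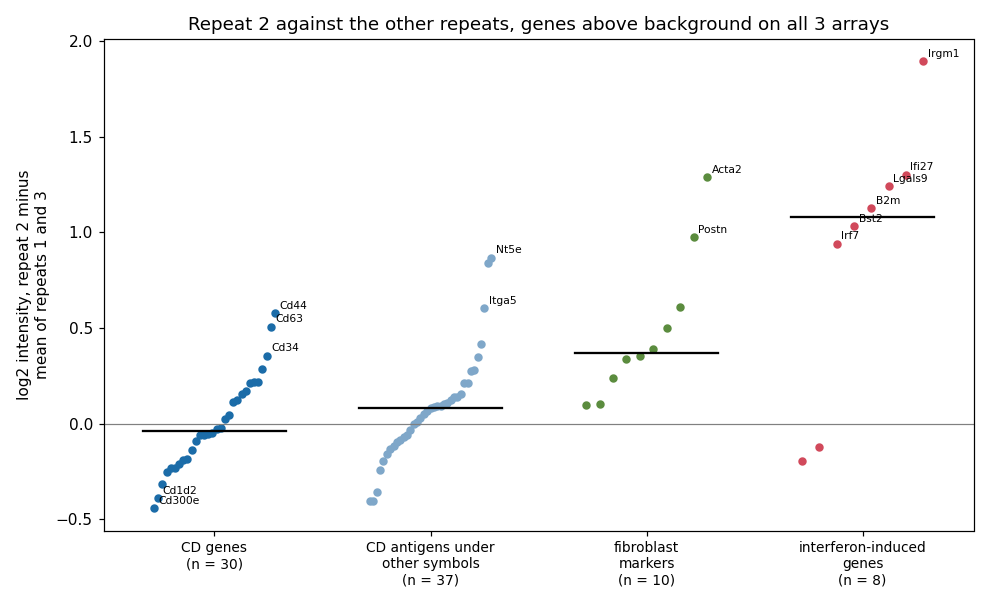
Log2 intensity in repeat 2 minus the mean of repeats 1 and 3 for genes above the cutoff on all arrays (points), with the median of each list (bar). CD genes run from -0.44 for Cd300e to 0.58 for Cd44 around a median of -0.04, and fibroblast markers and interferon-induced genes have medians of 0.37 and 1.08. The lists were written with earlier results of these data known.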

How the data were processed

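Probe set intensities, on a linear scale and never negative, were used as the authors deposited them for 3 arrays of 1 group. The submitters' processing notes name GCOS 1.4; how the values were background-corrected, normalized and summarised is not given in the sources used here. Array medians were 47.8, 46.7 and 46.8, and no further normalization was applied. The number of arrays limits precision. For most members the SEs and p-values of the limma fit rest mainly on the prior pooled over all genes. The spread of the gene's own repeats weighs less, so these p-values are not those of 3 arrays alone. For Cd164l2 the SD over the arrays was 0.029 and the SE 0.092, and for Cd300c2 they were 0.178 and 0.079. The cutoff of each array was taken as fixed.

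Of 26730 probe sets 20764 listed 1 symbol in the platform annotation, 1419 several and 4547 none. Log2 intensities of a gene with several probe sets were averaged; 2 members, Cd47 and Cd80, had 2 each. The gene identifiers of all 85 members matched RefSeq (GRCm38.p6). Differences from each array's cutoff were fitted with an intercept in limma 3.58.1 (R 4.3.3, trend and robust prior), two-sided, Benjamini-Hochberg adjusted over 19057 genes at 0.05. The variance test set the residual variance over the prior against F with 2 and 9.87 degrees of freedom. Both were tested on simulated data first: all genes placed 0.5 log2 units above or below the cutoff, 100 each, were called on the correct side, and 2% of 100 placed on it were called. The variance test called 53% of 100 genes with 1 array shifted by 1 log2 unit and all of 100 shifted by 1.5. Python 3.11.15 and pandas 2.3.3 were used.

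Every member could be named; values by array are given for members above the cutoff, within 0.3 of it, or with the 10 largest SDs among those above it on at least 1 array. Of other lists the first 4 measured genes, the gene with the largest SD and small minorities are named, with some others (ligands, receptors, partners and markers) chosen after their values were seen. Members, lists and roles were chosen with earlier results of these data known. Alternatives were other cutoffs, 2 of 3 arrays sufficing, quantile or median normalization, the highest probe set, a lower limit of 16, other priors, all genes in the variance test, and leaving out each repeat.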

Additional observations from a re-analysis of the deposited data

How the results depend on the processing

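The choice of cutoff moved the counts most. Members above it on all arrays numbered 17 where the cutoff was the 99th percentile of receptor genes and 9 where it came from the other silent families, against 30, and in the limma test 17 and 9, against 28; these 17 and 9 were all among the 28. In genes outside the receptor families the share above on all arrays was 54.8% and 41.2%. With the other families repeat 2 was farthest and higher in 1 member, against 7, with fewer members above. When 2 of 3 arrays sufficed, 32 members were above. At the 99th percentile the difference turned negative, among the 28 members called above, for Cd163l1 -0.23, Cd1d2 -0.0879, Cd300a -0.39, Cd300c -0.54, Cd300c2 -0.62, Cd300e -0.57, Cd79b -0.42 and Cd80 -0.11 log2 units. With the other silent families it did so, among the same 28, for Cd109 -0.51, Cd163l1 -1.05, Cd177 -0.78, Cd1d2 -0.91, Cd248 -0.0975, Cd300a -1.21, Cd300c -1.36, Cd300c2 -1.45, Cd300e -1.39, Cd34 -0.27, Cd37 -0.26, Cd3e -0.80, Cd40 -0.78, Cd44 -0.42, Cd47 -0.20, Cd63 -0.52, Cd79b -1.24, Cd80 -0.93 and Cd82 -0.56. Of members not separated from the cutoff, Cd6, Cd8a, Cd55, Cd74, Cd101 and Cd247 also turned negative under both. Quantile normalization, centring, the highest probe set and the prior without the trend changed no member's call; a lower limit of 16 and the prior without robust fitting added Cd55. Without each repeat in turn, members above the cutoff numbered 30 to 31 on all arrays left and 27 to 30 in limma, members below it 47 to 50, members varying beyond the trend 0, and the median SD was 0.083 to 0.14. No paired analysis was possible because the labels give 1 group.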
